A study of Drosophila melanogaster with 13 samples.

Results

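Array targets designed from cDNA clones of an adult testis library were followed through testes of 5 Drosophila melanogaster genotypes. Clones of this library carry names made of AT and 5 digits, and the array held 125 such targets. Of these, 2 match antisense RNAs and were left out, and 113 of the remaining 123 were flagged well above background on all arrays of at least 1 genotype. These 113 are described here, out of 19642 targets of all kinds that met the same criterion and 25796 on the array. Each array was hybridised with Cy3-labelled RNA from 80 pooled testes of males aged 0 to 2 days, raised at 25 °C.

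The 3 dany samples came from w[1118]/Y males with dany[ex11] over the deficiency Df(2R)BSC802. The 2 sa samples came from +/Y males with sa[1] on a th red chromosome over sa[2] on a ru h ca chromosome. The 2 aly samples came from w*/Y males with aly[2] over aly[5], both chromosomes carrying red and e, and the 2 topi samples from +/Y males carrying bw, with topi[Z3-0707] over topi[Z3-2139]. The 4 control samples came from w[1118]/Y males with the same deficiency over a wild-type chromosome. Control and dany testes therefore shared 1 copy of the deficiency. The sa, aly and topi chromosomes carry other visible markers, and no control with their background was measured, so mutation and background cannot be told apart for these 3 genotypes.

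Drosophila spermatocytes switch on a large set of testis genes before meiosis, many of which act later in spermatid differentiation. The meiotic arrest genes are needed for this programme: sa encodes a testis form of a TBP-associated factor, while the proteins of aly and topi belong to tMAC, a complex named after testis meiotic arrest. Mutant spermatocytes of these genes stop before the meiotic divisions. In whole testes, fewer cells of a stage and less RNA per cell cannot be told apart. Of the marker genes listed for the tissue, the post-meiotic genes f-cup, soti and hale were matched on the array (3 of 16). Above background were f-cup and soti on all 13 arrays and hale on 12. Of 9 listed somatic cyst and hub genes 3 were matched (eya, ptc and puc). A probe of eya was above background on all 13 arrays and of puc on 12. The ptc probes were above background on 3, 3 and 1 dany arrays, on 0, 1 and 2 sa arrays and on 0, 2 and 1 topi arrays. They were so on 2, 3 and 1 control arrays and on no aly array. The other eya probe was above background on 4 arrays, 3 of dany and 1 of sa. No listed gene of spermatogonia, spermatocytes, muscle sheath, accessory gland, fat body or blood cells was matched, so these cell types were not checked, and their part in the results was not tested.

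Levels are log2 processed signals from which the 75th percentile of the same array was subtracted. A value below 0 therefore means dimmer than that percentile, not absent. Levels of different probes are not compared. A difference is the mutant mean minus the control mean of such levels. A target is called higher or lower when limma gave a Benjamini-Hochberg adjusted p under 0.05 over all 19642 targets together with at least a 2-fold difference. Where no probe of a target stood above background on any array of a group, the fold is a bound ("at least") computed against the lowest signal that stood above background on each array.

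The topi arrays stood apart from each other. Over the 113 targets, their levels correlated at r = 0.753, against 0.952 to 0.984 among dany arrays, 0.953 for sa, 0.963 for aly and 0.957 to 0.993 among control arrays. Of the 113 targets, 32 (28.3%) were more than 3 log2 units higher in topi 2 than in topi 1, and none were lower by as much. Among all tested targets 5.9% showed such a gap. In every other pair of arrays of 1 genotype, between 0 and 6 of the 113 targets had such a gap.

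For these 32 targets, topi 1 lay a median of -9.74 from the control mean and topi 2 a median of -4.23. Their middle range in topi 2 was narrow, from -4.50 to -3.68, whereas in topi 1 it ran from -10.89 to -8.15. The aly mean of the same targets lay at a median of -8.998, the sa mean at -3.11 and the dany mean at -1.95. By these medians topi 1 sat near aly and topi 2 nearer sa. This does not hold for each target. Over the 32 the aly mean ran from -13.845 to 0.698 from control, and topi 1 from -13.74 to -5.77. For some of them aly thus lay far above topi 1. Both arrays carry the same topi label, so each topi mean and fold given for these targets averages 2 unlike values. The cause was not tested. The same 2 arrays enter the spread that all comparisons share, so counts for dany and sa are also given from a fit without them, an alternative chosen after the data were seen.

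**Figure D1:**
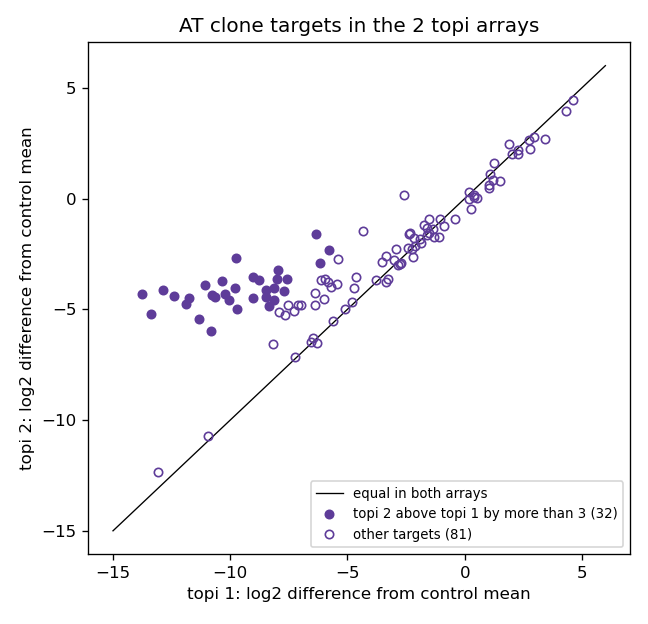
Difference of each of the 113 testis clone targets from the control mean (log2) in topi 1 (x axis) and in topi 2 (y axis), with 32 targets marked where topi 2 is more than 3 log2 units above topi 1. The marked targets spread along the x axis between -13.74 and -5.77 but stay between -5.97 and -1.60 on the y axis.

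Detection of the testis clones differed by genotype. On each dany array 110 of the 113 targets stood above background, on the sa arrays 103 and 106, on the aly arrays 70 and 66, on the topi arrays 60 and 93, and on the control arrays 105, 108, 108 and 105. In aly testes 39 targets had no probe above background on either array, against 18 in topi, 6 in sa, 3 in dany and 4 in control. Aly testes thus had the most targets with no probe above background on any array, while topi 1 was the single array with the fewest above background. The topi arrays differed from each other more than those of any other genotype. Above background on all arrays of dany were 97.3% of the testis clones, against 92.4% of all tested targets. The shares were 90.3% against 85.6% in sa, 55.8% against 78.8% in aly, 51.3% against 76.7% in topi, and 91.2% against 73.7% in control. Every target had to pass in at least 1 genotype to be kept. Of the 113 targets 47 stood above background on all arrays of all 5 genotypes, which 60.7% of all tested targets did.

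**Figure D2:**
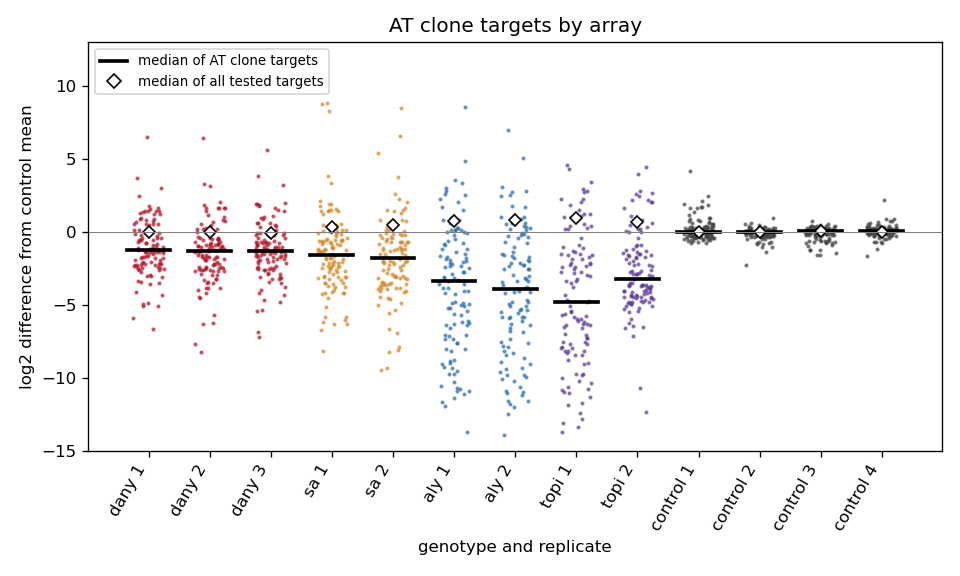
Difference of each testis clone target from its control mean (log2, y axis) on each of the 13 arrays (x axis), with a bar at their median and a diamond at the median of all tested targets. The medians lie between -1.32 and -1.26 in dany, at -1.55 and -1.81 in sa, at -3.36 and -3.90 in aly, at -4.81 and -3.21 in topi, and between -0.04 and 0.07 in control.

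The highest mean was that of dany for 12 of the 113 targets, of sa for 7, of aly and topi for 10 each, and of control for 74. The lowest mean fell to aly for 53 targets and to topi for 26. In 41 targets the means ran in 1 order, with control above dany, dany above sa, and sa above both aly and topi. Such orders were not counted over all tested targets, so they are not shown to be particular to the testis clones. The array medians did not overlap between genotypes, apart from topi 2, which lay between the sa and aly arrays.

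In dany testes, 44 of the 113 testis clone targets were lower (38.9%) and 10 were higher (8.85%). Among all tested targets, 17.8% were called lower and 26.4% higher in dany. The median difference was -1.20 for the testis clones and -0.04 for all tested targets. Without the topi arrays 63 testis clones were lower: 20 targets were gained, 17 of them with the gap between topi arrays, and 1 was lost. Over all 19642 tested targets the number called lower also grew, from 3496 to 4099. Scaling to the spike-in probes gave 24 lower and 13 higher, against 837 and 5889 of all tested targets. Scaling to the array median gave 68 lower and 7 higher, against 7137 and 3711. The all-target median moved with them, to 0.75 and -0.67. Each of these scalings subtracts 1 value per array, as the percentile does. The testis clone median minus the all-target median, -1.17, therefore could not change between them. It was -0.85 with normexp background correction and -1.01 with the deposited table.

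Among the falls in dany with both groups above background, AT04695 had the largest fitted difference. Its levels were 0.45, -2.87 and -1.83 in dany, against 5.42, 5.41, 5.21 and 5.45 in control. All dany arrays lay below all control arrays, and they spread over more than 3 log2 units (difference -6.79, SE 0.60, adjusted p = 4e-06). AT17684 followed at -5.14 (SE 0.57, adjusted p = 2.37e-05), with -2.76, -3.55 and -2.68 in dany, against 2.31, 2.17, 1.74 and 2.34 in control. AT27322 changed in dany by -4.80 (SE 0.74, adjusted p = 0.000256), while its difference in sa was -0.88 and did not pass (adjusted p = 0.402).

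AT29354 stood above background on every array of control alone among the 5 genotypes, and so was kept through control. Its levels were -7.89, -8.93 and -8.09 in dany, all below background, against -1.41, -0.67, -2.18 and -0.64 in control (at least 54.9-fold lower, adjusted p = 2.01e-06). AT27090 was also below background on every dany array (at least 19.8-fold lower, adjusted p = 7.12e-05), and it was kept through sa and control alone. Of the rises, AT04751 was the steepest: -0.83, -0.88 and -1.70 in dany, against -6.35, -7.55, -7.38 and -8.03 in control, where it was below background on all arrays. Dany exceeded control at least 29.7-fold (adjusted p = 2.49e-07). This target was kept through dany and sa alone, where it was high.

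In sa testes 52 targets were lower (46%) and 13 higher (11.5%), against 15.2% and 26.4% of all tested targets. The median difference was -1.63, against 0.41 for all tested targets. Without the topi arrays 63 were lower, all 11 of the gained targets having the gap between topi arrays. Over all tested targets the number called lower in sa also grew, from 2988 to 3555. Leaving out sa 1 gave 40 lower and leaving out sa 2 gave 38.

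CG31867 (AT02643) had the largest fall with sa and control both above background. Its levels were -4.64 and -4.75 in sa, against 3.23, 3.55, 3.65 and 3.60 in control (difference -8.20, SE 1.13, adjusted p = 0.000197). Both sa arrays lay more than 7 log2 units below every control array. AT07608 fell by 7.76 in sa (SE 0.66, adjusted p = 9.76e-06), but its sa arrays were far apart, at -2.44 and -5.83, against 3.69, 3.51, 3.66 and 3.64 in control. AT23070 was below background in sa and at least 45.4-fold lower there than in control (adjusted p = 5.3e-07). It was kept through dany and control alone.

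The rises in sa included AT04751. It had 1.46 and 1.16 in sa and exceeded control at least 162-fold (adjusted p = 2.96e-07). CG31870 (AT11120) stood above background in sa alone, with 0.87 and -2.55. Its levels were -9.03, -8.75 and -9.49 in dany, -7.80 and -8.04 in aly, -7.77 and -7.62 in topi, and -7.51, -7.70, -8.32 and -8.22 in control. It was at least 36.5-fold higher in sa than in control (adjusted p = 2.49e-05), and it was kept through sa, so that it had to be high there.

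In aly testes 78 of the 113 targets were lower (69%) and 11 higher (9.73%), against 20.3% and 40.3% of all tested targets. The median difference was -3.49, against 0.80 for all tested targets. Falls of at least 8-fold were called for 64 testis clones in aly (56.6%, against 12.2% of all tested targets), 63 in topi (55.8%, against 13.5%), 29 in sa (25.7%, against 4.81%) and 17 in dany (15%, against 2.96%). Of the 78, 37 had no probe above background on either aly array. For 36 of these control was above background, and their bounds had a median of 75.1-fold.

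AT15627 carried the highest bound. Its levels were -7.39 and -7.61 in aly, against 6.05, 6.39, 6.46 and 6.47 in control (at least 4124-fold lower, adjusted p = 5.32e-05). The aly arrays were below background, while dany (3.96, 4.46 and 4.36) and sa (3.30 and 3.20) sat between aly and control with no overlap. The topi arrays were far apart for this target, at -7.40 and 2.03. In dany its difference of -2.08 missed the threshold (adjusted p = 0.284) but passed without the topi arrays (adjusted p = 7.93e-06). AT02670 (at least 2949-fold lower in aly, adjusted p = 8.88e-05), AT09606 (at least 1603-fold, adjusted p = 8.46e-05) and AT24185 (at least 1184-fold, adjusted p = 3.83e-05) were also below background in aly.

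Among falls with aly and control both above background on at least 1 array, AT30755 was the largest. It had -3.93 and -6.12 in aly, of which 1 array was above background, against 6.55, 6.08, 6.64 and 6.32 in control (difference -11.43, SE 0.55, adjusted p = 1.11e-07). AT18211 (-9.81), AT08601 (-9.09), AT03545 (-8.94) and AT23593 (-8.75) also fell, with adjusted p between 1.39e-05 and 9.25e-05. Rises in aly were led by AT26853, with 3.36 and 1.75 in aly, against -3.52, -5.41, -5.11 and -6.85 in control (difference 7.78, SE 0.90, adjusted p = 2.45e-05).

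In topi testes 86 targets were lower (76.1%) and 12 higher (10.6%), against 21.4% and 42.4% of all tested targets. The median difference was -4.07, against 0.82 for all tested targets. It was -3.11 without topi 1, with 79 targets lower, and -4.81 without topi 2, with 82 lower. The number of falls thus moved little with either array, while their size moved.

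AT04695 was below background on both topi arrays, at -7.71 and -6.98, against 5.42, 5.41, 5.21 and 5.45 in control (at least 1796-fold lower, adjusted p = 2.24e-07). Here the topi arrays lay within 1 log2 unit of each other. AT07608 was likewise low on both, at -7.33 and -7.09 (at least 536-fold lower than in control, adjusted p = 4.65e-07). By contrast, AT26009 had the largest fitted fall in topi among targets above background in both groups (-9.30, SE 1.61, adjusted p = 0.000394), from arrays at -6.86 and 1.29, against 6.55, 6.46, 6.37 and 6.69 in control. Rises in topi were led by AT15050 (4.52, SE 0.94, adjusted p = 0.00139).

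**Figure D3:**
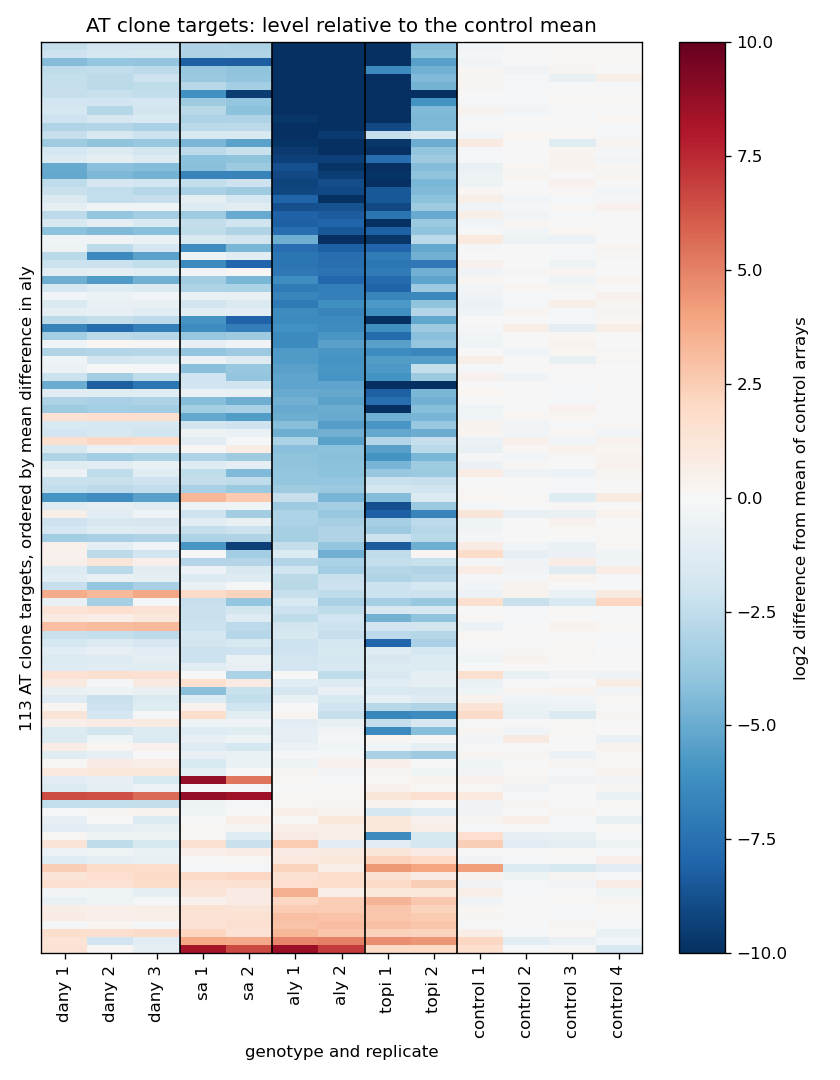
Difference of each of the 113 testis clone targets (lines of the map) from its control mean (log2, colour scale capped at its ends, targets ordered by their aly difference) on each of the 13 arrays (columns). The colour for lower levels is deepest in the aly columns and in topi 1, while the rises are few in every mutant.

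Across the 4 mutants, 32 testis clones were lower in all of them (28.3%, against 6.47% of all tested targets) and 92 in at least 1 (81.4%, against 34.2%). At least 1 mutant was higher for 23 testis clones (20.4%, against 61.4%) and all 4 for 3 of them (2.65%, against 7.57%), while 5 were called in none (4.42%, against 12.6%). Another 14 were lower in sa, aly and topi and not called in dany (12.4%, against 2.97%), 26 were lower in aly and topi and not called in sa (23%, against 6.68%), and 3 were lower in dany and not called in the other 3 (2.65%, against 4.69%). With the dany, sa and aly calls taken from the fit without the topi arrays, these counts became 46 lower in all 4 mutants (against 9.67% of all tested targets), 10 lower in sa, aly and topi and not called in dany (against 2.61%), 16 lower in aly and topi and not called in sa (against 4.12%), and again 3 lower in dany and not called elsewhere (against 4.7%). Except for the last, the counts thus depend on the spread between the topi arrays. The 4 comparisons share the control arrays, so their calls are not independent of each other. Those called in none were AT02348, AT07234, AT14585, AT17348 and AT24411, named here after their values were seen. Not being called does not show that they did not differ. In dany, AT02348 differed by -0.947 (limma adjusted p = 0.000949) and missed only the 2-fold limit. Within slides, dany differed from control by -1.402, -2.003 and -1.444 for AT14585 and by -1.201, -1.598 and -1.117 for AT17348. For AT07234 and AT24411 the dany difference changed sign between slides.

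**Figure D4:**
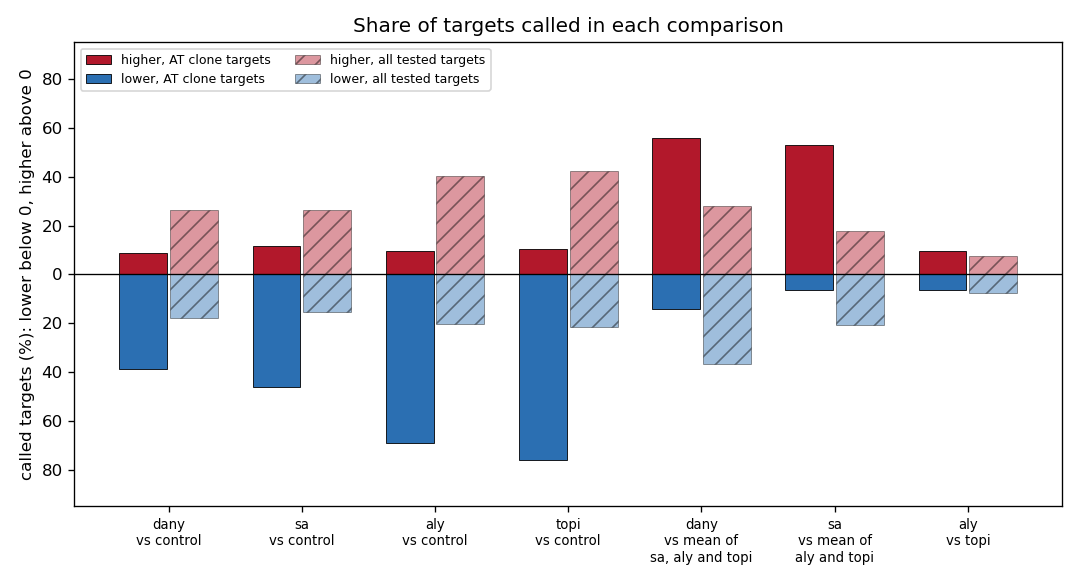
Percent of targets called higher and called lower in each mutant against control and in the comparisons between mutants, for the 113 testis clone targets and for all 19642 tested targets. For testis clones the lower share runs from 38.9% in dany through 46% in sa and 69% in aly to 76.1% in topi, each above the share of all tested targets, and the higher share stays between 8.85% and 11.5%.

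Of the targets lower in all 4, AT30578 had close replicates throughout. Its levels were -2.68, -2.65 and -2.59 in dany, -3.68 and -3.35 in sa, -5.39 and -5.55 in aly, -6.02 and -6.25 in topi, and 0.23, 0.05, 0.52 and 0.39 in control. No genotype overlapped another, and aly and topi were below background. It changed by -2.93 in dany (adjusted p = 2.67e-07) and by -3.81 in sa (adjusted p = 4.9e-07), and was at least 54.2-fold lower in aly (adjusted p = 1.32e-08) and at least 53.2-fold lower in topi (adjusted p = 1.66e-08). CG8204 (AT23078) likewise fell with small spread, by 3.85 in aly, by 2.27 in topi, by 2.44 in sa and by 2.17 in dany, with adjusted p between 4.83e-08 and 2.28e-06.

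A set of 20 targets (17.7%, against 5.96% of all tested targets) was lower in aly and topi and not called lower in dany or sa. Their median difference was -7.98 in aly and -6.32 in topi, and -1.17 in dany and -1.24 in sa. With the dany, sa and aly calls of the fit without the topi arrays, 5 of the 20 remained in this set (which then held 3.59% of all tested targets), since the others were then lower in dany or sa as well. The set therefore rests largely on the spread between the topi arrays. Missing the threshold in dany and sa does not show that these targets did not differ there. AT23593 belongs to the 20. Its levels were 5.39, 5.85 and 5.87 in dany, 5.02 and 5.28 in sa, -2.51 and -2.37 in aly, -2.73 and 2.78 in topi, and 5.92, 6.20, 6.39 and 6.72 in control. Dany and sa lay below every control array, and both aly arrays and topi 1 lay far below. Within slides, dany differed from control by -0.53, -0.54 and -0.85, and sa by -0.90 and -1.12.

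**Figure D5:**
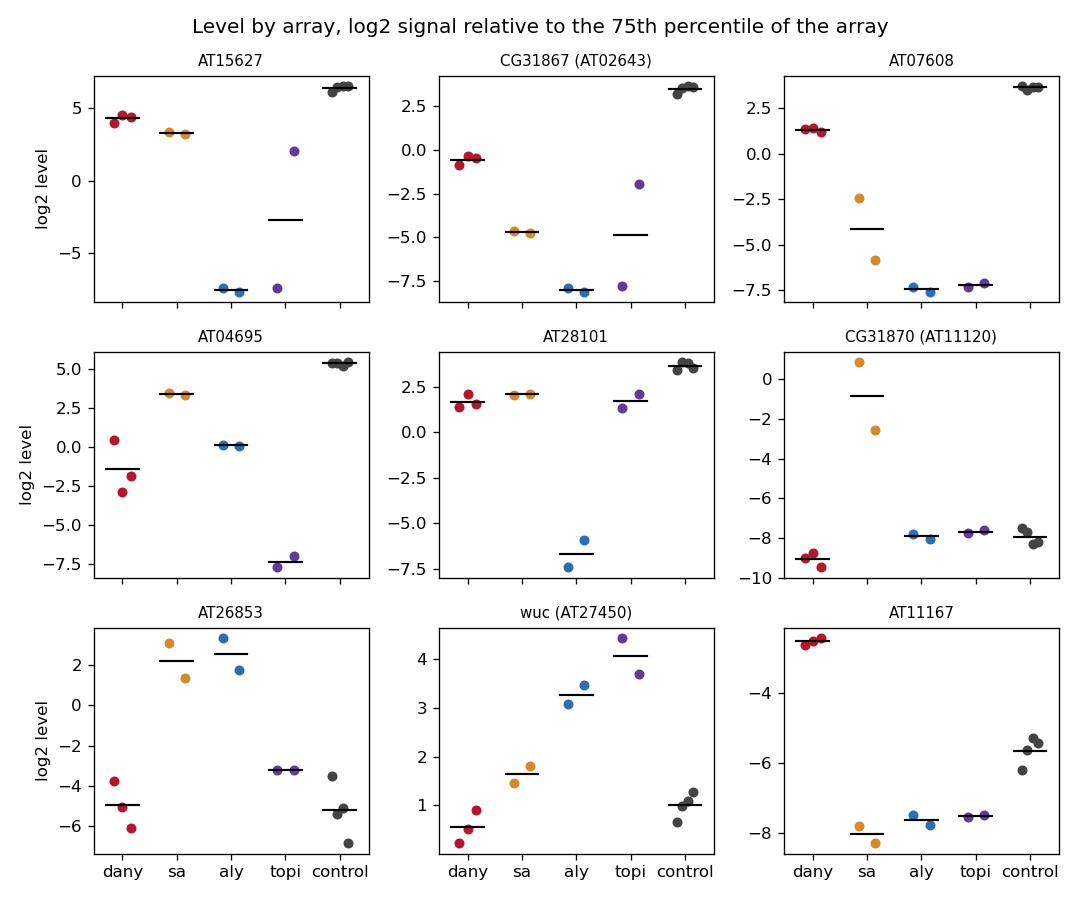
Level (log2 processed signal minus the array's 75th percentile, y axis) of 9 testis clone targets on each array, with a bar at the genotype mean, grouped by genotype (x axis). For AT15627, aly and topi 1 lie near -7 while topi 2 is at 2.03, and for AT11120 the sa arrays alone stand above background.

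The direct comparison of dany with the mean of sa, aly and topi called 63 testis clones higher (55.8%, against 28% of all tested targets) and 16 lower (14.2%, against 36.7%). The median difference was 1.72, against -0.50 for all tested targets. AT07608 had 1.33, 1.42 and 1.17 in dany, against -2.44 and -5.83 in sa, -7.31 and -7.57 in aly, and -7.33 and -7.09 in topi. With aly and topi below background, dany exceeded the average of the 3 at least 83.8-fold (adjusted p = 7.31e-07). Every dany array lay above every array of the other mutants. AT26853 was among the lower ones (-5.50, SE 0.74, adjusted p = 6.35e-05).

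Sa testes were compared with the mean of aly and topi, the tMAC mutants. Of the testis clones 60 were higher in sa (53.1%, against 17.9% of all tested targets) and 7 lower (6.19%, against 20.7%). AT15627, below background in aly, was higher in sa by at least 172-fold (adjusted p = 0.0035), and AT04751, below background in aly and topi, by at least 116-fold (adjusted p = 6.97e-07). The lower targets included AT07671, AT11810, AT28829 and wuc (AT27450), with differences between -2.03 and -1.32.

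Between aly and topi, 11 testis clones were higher in aly (9.73%, against 7.52% of all tested targets) and 7 lower (6.19%, against 7.42%), shares near those of all targets. These counts depended on the topi array: without topi 1 there were 8 higher and 35 lower, and without topi 2 there were 20 higher and 7 lower. AT28101 did not rest on that gap. Its levels were -7.43 and -5.90 in aly, both below background, against 1.37 and 2.15 in topi (at least 172-fold lower in aly, adjusted p = 9.88e-07). Dany (1.38, 2.11 and 1.54) and sa (2.04 and 2.15) overlapped topi, and control was higher at 3.42, 3.88, 3.84 and 3.58.

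AT04695 ran the other way, with 0.13 and 0.10 in aly, against -7.71 and -6.98 in topi, where it was below background (at least 47.0-fold higher in aly, adjusted p = 0.000102). AT26853 was also higher in aly than in topi (5.75, SE 1.04, adjusted p = 0.00358). It had 3.098 and 1.37 in sa and 3.36 and 1.75 in aly, but -3.19 and -3.19 in topi, -3.78, -5.04 and -6.10 in dany, and -3.52, -5.41, -5.11 and -6.85 in control. Sa and aly stood above all other arrays. The topi difference from control, 2.03, did not pass (adjusted p = 0.0647).

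Testis clones called in opposite directions in different mutants numbered 7 (6.19%, against 8.16% of all tested targets). AT16733 is one with close replicates, and it was kept through dany and control alone. Its levels were -1.28, -1.10 and -1.11 in dany, -7.89 and -8.33 in sa, -7.64 and -7.80 in aly, -7.55 and -7.43 in topi, and -3.04, -2.53, -2.59 and -2.81 in control. Dany lay above every control array (1.58, SE 0.19, adjusted p = 4.04e-05), and sa, aly and topi were below background.

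AT16733 was at least 9.92-fold lower than control in sa, 7.59-fold in aly and 6.47-fold in topi, with adjusted p between 4.83e-08 and 1.01e-07. AT11167, AT25722 and AT03385 also rose in dany (3.11, 1.48 and 1.87) and were lower in aly and topi. All 3 were below background in aly, where the bounds were at least 1.02-fold, 5.15-fold and 9.79-fold. AT25722 and AT03385 were measured in topi, with differences of -1.61 and -2.61. AT11167 was above background on all arrays of dany alone, and so was kept through dany. It was below background in sa (at least 1.33-fold lower) and in topi, where no bound above 1 could be given. AT05157 was higher in dany (3.62) and in sa (2.09) and lower in aly and topi, with adjusted p between 9.88e-06 and 0.00175 over the 4. It was below background on all aly and topi arrays, so that its bound was at least 1.11-fold in aly and none above 1 could be given in topi, and it was kept through dany and sa. With normexp background correction AT11167 (-0.61, -0.47 and -0.23) and AT05157 (0.96, -0.66 and -0.37) lost their calls in sa, aly and topi. With median scaling the dany rises of AT16733 (0.95) and AT25722 (0.85) were under 2-fold.

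AT27090 showed the reverse arrangement. It had -8.58, -8.91 and -8.11 in dany, below background on every array, 0.64 and -0.07 in sa, and -2.53, -2.54, -3.92 and -1.77 in control. It was higher in sa (2.98, SE 0.85, adjusted p = 0.0144) and lower in aly (-3.49) and topi (-2.90), with dany the lowest. This target was kept through sa and control alone, so that it had to be above background there. The remaining target, AT05287, was called higher in sa (at least 1.64-fold, control being below background) and lower in aly. It was kept through dany and sa alone. Aly and control were both below background on every array, so the aly call sets signals below background against each other, and both calls were lost with normexp background correction (0.18 and -0.40).

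Rises were graded in a small group. AT11810 had 1.94, 2.24 and 1.96 in dany, 3.48 and 3.71 in sa, 4.91 and 5.12 in aly, 5.03 and 4.87 in topi, and 1.86, 2.09, 2.33 and 1.98 in control. Dany overlapped control, sa lay between, and aly and topi were highest and overlapped each other. It rose by 1.53 in sa (adjusted p = 0.000157), 2.95 in aly (adjusted p = 7.91e-07) and 2.88 in topi (adjusted p = 1e-06). AT28829 followed the same order, with 1.49, 2.92 and 2.69, and its difference of 0.65 in dany was under the 2-fold limit. Spike-in scaling ended both sa calls (1.62 and 1.59).

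AT15050 rose in sa, aly and topi, but its dany and control arrays spread widely. Dany had 1.25, -2.09 and -1.18, and control 1.94, -1.21, -0.92 and -0.43. The high array of each, dany 1 and control 1, shared slide 1, which also held sa 1 and aly 1. Over all tested targets, gaps of more than 3 log2 units from replicate 2 mostly had replicate 1 higher. In dany 330 targets were higher and 2 lower, in sa 252 and 5, in aly 278 and 12, and in control 189 and 24. The part of the slide in these spreads was not tested.

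The clone names of 20 of the 113 targets matched a single current gene symbol, on chromosome arms 2L (3 genes), 2R (5), 3L (5) and 3R (7). Of these 20, 10 were lower and 1 higher in dany, 12 and 2 in sa, 15 and 2 in aly, and 15 and 3 in topi, against lower and higher shares of all tested targets of 17.8% and 26.4%, 15.2% and 26.4%, 20.3% and 40.3%, and 21.4% and 42.4% in that order. Most carry only an annotation number, and few have a known role.

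A transcription regulator was among the targets that rose. Wuc (AT27450), a Lin-52 paralogue known to bind Aly, had 0.22, 0.52 and 0.91 in dany, 1.46 and 1.82 in sa, 3.07 and 3.47 in aly, 4.43 and 3.69 in topi, and 0.66, 0.98, 1.09 and 1.27 in control. Aly and topi lay above all other arrays, and dany overlapped control. Wuc rose by 2.27 in aly (SE 0.29, adjusted p = 5.12e-05) and by 3.06 in topi (SE 0.29, adjusted p = 6.58e-06). Its differences in dany (-0.45, adjusted p = 0.161) and sa (0.64, adjusted p = 0.0939) did not pass.

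The vacuolar proton pump acidifies cell compartments and was represented by 2 subunit genes with unlike values. Vha100-3 (AT03238), a subunit of its membrane sector, had -3.32 and -3.05 in aly and -5.50 and 1.16 in topi, against 4.61, 5.07, 4.93 and 4.87 in control. It fell in aly (-8.05, SE 1.28, adjusted p = 0.000234) and in topi (-7.04, SE 1.28, adjusted p = 0.000563). Its dany (3.25, 3.86 and 3.38) and sa (2.46 and 2.85) arrays lay below every control array, though the differences of -1.38 and -2.21 did not pass. Without the topi arrays both passed (adjusted p = 0.000285 in dany and 4.21e-05 in sa). Vha13 (AT14009), a subunit of the catalytic sector's stalk, was higher in topi by 1.01 (adjusted p = 0.00067), a call lost under scalings that brought it under 2-fold, down to 0.43.

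RpS29 (AT28563), a protein of the small ribosomal subunit, fell by 1.298 in sa, 2.50 in aly and 2.90 in topi, with adjusted p between 2.17e-06 and 0.00108. Its difference in dany, -0.94, was under the 2-fold limit. Puf (AT28817), a ubiquitin-specific protease, was lower in all 4 mutants, by -2.10 in sa, -1.84 in aly, -1.51 in topi and -1.01 in dany, with adjusted p between 2.44e-05 and 0.000968. The dany value fell under 2-fold with the slide in the fit (-0.93). Spike-in scaling ended the dany calls of puf (-0.22), CG9133 (-0.22), CG8204 (-1.38) and CG31093 (-0.65) and the sa call of RpS29 (-1.20).

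Ten-m (AT25108), a teneurin transmembrane protein of cell contacts, was higher in all 4 mutants, by 2.00 in sa, 1.64 in both dany and aly, and 1.15 in topi. It was dim in control, with 2 of 4 arrays above background, and with normexp background correction none of these calls held (0.27 to 0.73). The other targets higher in all 4 were AT16442 and AT11392. AT11392 was below background in every control array, and its dany difference changed sign under normexp correction (-0.07, adjusted p = 0.775).

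Among matched genes known by number, CG3748 (AT30262) fell by 4.78 in dany (SE 0.99, adjusted p = 0.00189), with -2.87, -2.27 and -2.45 in dany, against 1.71, 2.50, 2.29 and 2.50 in control. CG4960 (AT31258) fell by 4.25 in dany (SE 0.72, adjusted p = 0.000515). CG31542 (AT15479), CG13474 (AT29351) and CG31093 (AT30660) were also lower in all 4 mutants, as were CG31867 and CG8204. Of these, CG31093 was kept through dany and control alone. CG9133 (AT07490) was lower in dany (-1.01, adjusted p = 0.00295) and not called in sa, aly or topi, and it was lower in dany than in the mean of those 3 (-1.08, adjusted p = 0.000782). CG11333 (AT02774), CG15605 (AT23338), CG32148 (AT21341) and CG30284 (AT22714) were below background in aly, with bounds of at least 505-fold, 488-fold, 371-fold and 944-fold lower than control.

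CG32219 (AT25132) set sa apart from the tMAC mutants. It had -3.02 and -3.15 in sa, -7.39 and -7.32 in aly and -7.58 and -7.46 in topi, both below background. Sa exceeded the average of these 2 at least 5.55-fold (adjusted p = 6.77e-07). Its dany levels, -4.43, -4.04 and -4.50, lay between those of sa and of the tMAC mutants, and its control levels were -2.17, -2.72, -2.29 and -2.73.

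Clones of other libraries on the same array gave a further comparison, described without a test. Of 166 adult head clone targets 12.7% were lower in dany, while sa had 8.43%, aly 10.8% and topi 9.04%. Of 143 embryo targets the lower shares were 13.3%, 8.39%, 9.79% and 10.5% in the same order, and of 49 ovary targets 16.3%, 4.08%, 6.12% and 8.16%. The testis clone shares, given above, were higher in every mutant.

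Of the 113 targets 14 had several probes above background, and the brightest was used. All probes of a target gave the same sign in 12 of 14 targets in both dany and aly and in 13 in both sa and topi. AT03160 disagreed most: its probes ran from -8.20 to 2.00 in aly, so its calls belong to 1 probe. The 10 testis clones left out stood above background on 0 to 3 arrays each, with AT07779 closest to being kept, on 3 arrays that did not make up a genotype. Just inside the criterion were AT11167, AT11120 and AT29354, each above background on all arrays of 1 genotype.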

How the data were processed

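RNA from testes of 5 genotypes was measured on 13 one-colour Agilent arrays, on 4 slides scanned on 3 days. Replicates are biological per the labels. Per the file headers, the authors extracted signals by the protocol GE1_107_Sep09 of Agilent Feature Extraction 10.7.3.1, and the array design names build dm3. Each deposited scanner file gives intensity on a linear scale: a background-subtracted processed signal, the median signal and its local background, with flags for outliers and detection. A deposited series table gives log2 values of the same arrays. How the authors corrected and scaled it is not given in the sources used here, so it served as an alternative.

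Spots of a probe were averaged, leaving out outlier spots (87 to 163 of 45019 per array) where others remained. No spot was saturated. The level was log2 processed signal minus the array's 75th percentile. A probe was above background on an array if all its remaining spots were flagged so, and the brightest such probe stood for its target. Testis clones were the AT-named targets, without those matching antisense or long noncoding RNAs. Symbols came from RefSeq synonyms. Probes of the 4 mutated genes were not identified, so these genes were not checked in their own samples.

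With limma 3.58.1 (R 4.3.3), 1 mean per genotype was fitted over all arrays and tested two-sided, with 8 residual and 2.49 prior degrees of freedom, and p-values were adjusted over 19642 targets within each of 7 comparisons. The fit was tested on simulated data. Precision is limited by the number of arrays: testis clones had a median standard error of 0.504 in dany and 0.571 in the other mutants. Bounds used, per array, the higher of the lowest above-background signal and the dim probe's own.

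Alternatives were normexp background correction (offset 50, on the median signal), 4 other scalings, the deposited table, no filter, the mean of probes, the slide or the replicate number as a block, single slides, and leaving out each array. Fits without the topi arrays and on 2 groups only were added after the data were seen. The members and lists were chosen with earlier results of these data known. Named targets, 60 in all, were the largest falls and rises above background and by bound in each mutant, the largest differences between mutants, all targets matching 1 gene, and those called in opposite directions. Sequences are not given because no probe or clone sequence was used here.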

Additional observations from a re-analysis of the deposited data

Results flagged for a closer look

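Among 60 named targets, 4 had a control array far from the other 3. The gap of that array to its nearest neighbour, as a share of the range over the 4 control arrays, passed Dixon's 95% critical value for 4 arrays. It was 0.85 for AT03545, with 4.63, 3.80, 3.92 and 3.85, and 0.872 for AT04157, with 2.64, 3.56, 3.69 and 3.61. It was 0.846 for AT04695, with 5.42, 5.41, 5.21 and 5.45, over a range of under 1 log2 unit. For AT16038 it was 0.927, with -2.09, -7.63, -7.82 and -7.41. Control 1 was the array apart in AT03545, AT04157 and AT16038, and control 3 in AT04695. Chance alone would pass about 1 in 20 groups. AT16038 was called higher in topi (4.13, adjusted p = 0.0173), where both arrays (-1.93 and -2.27) lay close to control 1. It was kept through dany and topi alone.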

How the results depend on the processing

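The median difference of the testis clones kept its sign in every comparison and alternative except 1: aly against topi without topi 2 gave 0.027. For dany against control, median scaling gave 68 lower (median -1.84) and spike-in scaling 24 (-0.41). Spike-in scaling left 7 higher in sa, 7 in aly and 7 in aly against topi. Normexp, the percentile over probes above background on all arrays and the deposited table gave medians of -2.60, -4.12 and -3.06 in aly and -2.52, -4.66 and -3.56 in topi. In topi, no filter gave -3.44 and slides 2 and 3 gave -4.85 and -3.04. For dany against the mean of the other mutants, median scaling gave 1.19 and normexp 1.06, the percentile over detected probes 2.44 with 8 lower, and spike-in scaling 2.51 with 7 lower. For sa against aly and topi averaged, normexp gave a median of 0.84, and median scaling, that percentile and spike-in scaling gave 13, 3 and 2 lower.

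Leaving out single arrays gave 40 to 64 lower, 9 to 11 higher and medians from -1.27 to -1.16 in dany. In the same order they gave 38 to 63, 11 to 14 and -1.81 to -1.54 in sa, 73 to 79, 10 to 11 and -3.90 to -3.36 in aly, and 79 to 86, 10 to 13 and -4.81 to -3.11 in topi. For dany against the other mutants the ranges were 59 to 70 higher, 15 to 18 lower and 1.40 to 2.19. For sa against aly and topi they were 45 to 68, 7 to 9 and 1.26 to 2.34. For aly against topi they were 6 to 20, 4 to 35 and -0.50 to 0.027, with 6 higher without aly 1 and 4 lower without aly 2.

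Over 21 same-numbered pairs of arrays the lowest correlation of deviations from the genotype mean was -0.05 and the median 0.48. The median was 0.62 over 10 pairs that also shared a slide and 0.03 over 11 that did not. It was 0.29 over 6 pairs sharing a slide but not the number, and -0.09 over 39 pairs sharing neither. Correlation was thus higher between arrays of the same slide, and the main fit held no term for the slide. With the replicate block 42 testis clones were lower in dany, 45 in sa, 77 in aly and 86 for topi. The slide as a block gave 52, 58, 82 and 85. Over all tested targets the replicate block gave 3654, 2826, 3954 and 4271 lower, and the slide block 3883, 3260, 4041 and 4368. Of 200 called differences of named targets 145 kept their call under every alternative other than leaving out an array, and 1 reversed, AT11392 in dany (-0.068 under normexp). Low signals limit folds below background, and normexp shrank them.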
